A study of Mus musculus with 32 samples.

Results

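The 31 clone spots described here carry titles of cytokine, interferon and immune antigen genes on a cDNA array of 4696 clone spots. They were taken by title: interleukin, chemokine, interferon, histocompatibility, tumor necrosis factor, lymphocyte, T-cell, complement component, immunoglobulin, Ia-associated, or a CD antigen number. Titles that begin as expressed sequence tags (ESTs) or DNA segments were left out (9 spots), as were receptors, kinases and other excluded words (8 spots). Titles other than ESTs and DNA segments are borne by 1127 of the 4696 clone spots. This rule uses no measured value. Of the 31 titles, 28 name a gene with a current symbol, 2 name stretches of the class III region with several genes, and 1 names an immunoglobulin kappa variable segment (Igk-V28).

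The label fits most of the titles, but not all of them. By role, 4 members belong to class II antigen presentation, 7 to B and T lymphocytes, 6 are surface antigens of leukocytes, 3 belong to the interferon system, 2 to complement, and 3 are a chemokine or genes induced by tumor necrosis factor. A further 4 match by title only, among them Tal1, a blood cell transcription factor, Igbp1, a regulator of protein phosphatases, and C1qbp, a mitochondrial protein. No member is an interleukin or an interferon itself.

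RNA came from the prefrontal cortex of adult mice of selected generation 26, from lines bred from a heterogeneous stock for opposite severity of withdrawal. The line called WSP is prone and the line called WSR resistant to seizures in withdrawal, and each exists as 2 separately derived populations, selection replicates 1 and 2. EtOH mice were injected with ethanol at 1.5 g/kg (WSP mice of selection replicate 2 received a higher dose), breathed ethanol vapour for 72 h and were sampled 8 h into withdrawal, while air mice breathed air. Pyrazole, an inhibitor of alcohol dehydrogenase, was given at 68.1 mg/kg to EtOH and air mice alike, so no group is without the drug. The 8 groups are female and male WSP and WSR mice after air or EtOH, with 4 arrays each. Every array was hybridised with cDNA from a pool of 2 mice, so the spread between arrays is a spread between pools. Below, arrays are named by selection replicate and pool, and 4 values in a row stand in the order 1-1, 1-2, 2-1 and 2-2.

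Class II histocompatibility molecules present peptides from outside the cell to helper T cells, with the invariant chain Cd74 guiding their assembly and transport. In the brain they are known mainly from microglia, from macrophages at vessels and meninges, and from infiltrating leukocytes, and interferon gamma is their classic inducer. Interferon-stimulated genes and complement factors are likewise made by glia, while lymphocyte genes such as Cd4, Cd28 or Jchain are low in healthy cortex. In tissue RNA of this kind, fewer cells of a type and less RNA per cell cannot be told apart.

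The arrays' own clone sequences were not used here. The promoters of 3 class II members and of Ifi203 are shown because they carry the elements for which these gene groups are known. They are from RefSeq on the mouse build GRCm38.p6, give the 150 bases before the start of the gene 5′ to 3′, and concern the gene rather than the spotted clone. Capitals mark CCAAT or its reverse complement ATTGG in the class II promoters, where it is known as part of the Y box, and the core of the interferon-stimulated response element in Ifi203, which is GAAA, any 2 bases and GAAA. H2-Aa lies at chr17:34287824-34287973 on the minus strand, H2-Eb1 at chr17:34305717-34305866 and H2-Ob at chr17:34238755-34238904 on the plus strand, and Ifi203 at chr1:173942493-173942642 on the minus strand.
H2-Aa: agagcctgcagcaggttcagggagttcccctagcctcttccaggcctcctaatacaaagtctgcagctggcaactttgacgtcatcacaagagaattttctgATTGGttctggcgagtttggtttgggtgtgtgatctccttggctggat
H2-Eb1: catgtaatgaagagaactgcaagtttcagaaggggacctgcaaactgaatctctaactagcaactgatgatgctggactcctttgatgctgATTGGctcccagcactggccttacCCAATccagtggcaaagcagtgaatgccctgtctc
H2-Ob: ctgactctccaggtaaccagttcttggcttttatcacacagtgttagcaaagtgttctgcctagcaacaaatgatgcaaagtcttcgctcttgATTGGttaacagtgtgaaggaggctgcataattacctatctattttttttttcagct
Ifi203: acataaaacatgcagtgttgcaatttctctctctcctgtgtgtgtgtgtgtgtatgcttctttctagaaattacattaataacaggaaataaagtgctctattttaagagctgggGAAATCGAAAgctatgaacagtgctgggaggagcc
On either strand, CCAAT stood in 24.5% of 32851 RefSeq promoters of the same length and in those of 7 of the 19 member genes with an entry. The response element core stood in 1.59% of all promoters and in 1 of the 19 member genes, which is Ifi203. A match of letters is a description and not evidence of a bound site.

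Values are log2 intensities after background correction with an offset and quantile normalisation, on which the offset sets a floor of 5.64. Signal was low: 29 of the 31 members had a mean within 1 log2 unit of that floor, as did 84.6% of all clone spots, so differences between arrays are compressed for them. Only Ifi203 (mean 11.47) and Cd74 (mean 10.53) were bright, and 5 members (these, Jchain, Cd48 and the Notch4 region of class III) were above their array's background on all 32 arrays. Female arrays had 18.0 ± 4.27 members above background, male arrays 21.3 ± 5.39, and these counts were 19.5 ± 4.82 for EtOH and 19.8 ± 5.47 for air (SD, n = 16 arrays each). Of all clone spots, 60.9% on average were above background on female and 70.5% on male arrays. The background intensity itself was 16.4 ± 5.94 units for females and 26.5 ± 8.53 for males. For 24 of the 32 arrays, the genomic DNA control spots fell into 9 sets of 2 to 4 arrays that vary together, and 8 of these sets cross lines or sexes. The labels give no cause for these sets, so values with a set left out are given beside some of the members they move. Of tissue markers, glutamine synthetase, an astrocyte enzyme, and synaptotagmin 4, a neuronal protein, were above background on all 32 arrays, at means of 8.95 and 7.22.

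The study asks how gene expression in withdrawal differs from that of air controls in each sex and line. Averaged over the 4 strata of sex and line, none of the 31 members passed (limma, Benjamini-Hochberg adjusted over all 4696 clone spots, threshold 0.05), and percent called among all clone spots was 0. At an unadjusted p under 0.05 the members Sema4d, Cd4 and Jchain stood out, 3 of 31, against 7.52% of all clone spots. The smallest adjusted p of a member was 0.656. Fitted differences were below 0, that is lower in EtOH, for 20 of 31 members and for 48.3% of all clone spots. The median difference was -0.03 log2 over the members and 0.00 over all clone spots, with a range over members from -0.31 (Cd28) to 0.26 (Sema4d). The members' count at unadjusted p and their median lay close to those of the whole array.

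**Figure D1:**
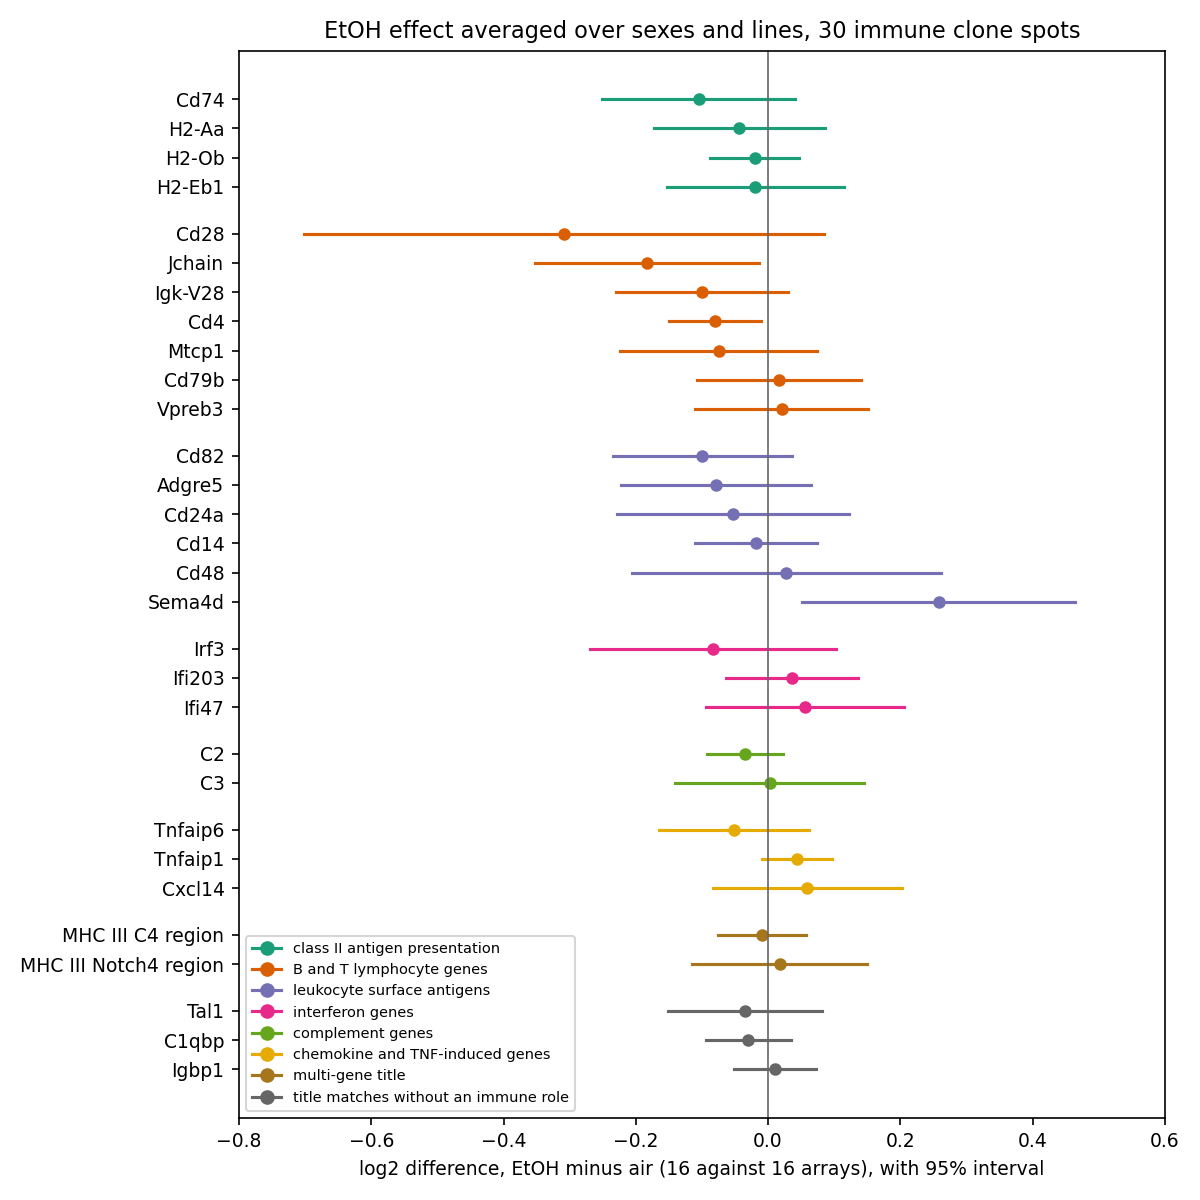
Fitted log2 difference between 16 EtOH and 16 air arrays for 30 of the 31 members (points), with 95% intervals from limma (lines), grouped and coloured by role. The intervals of Sema4d (0.26), Jchain (-0.18) and Cd4 (-0.08) do not cross 0, none passed after adjustment, and Cd28 has the widest interval.

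**Figure D2:**
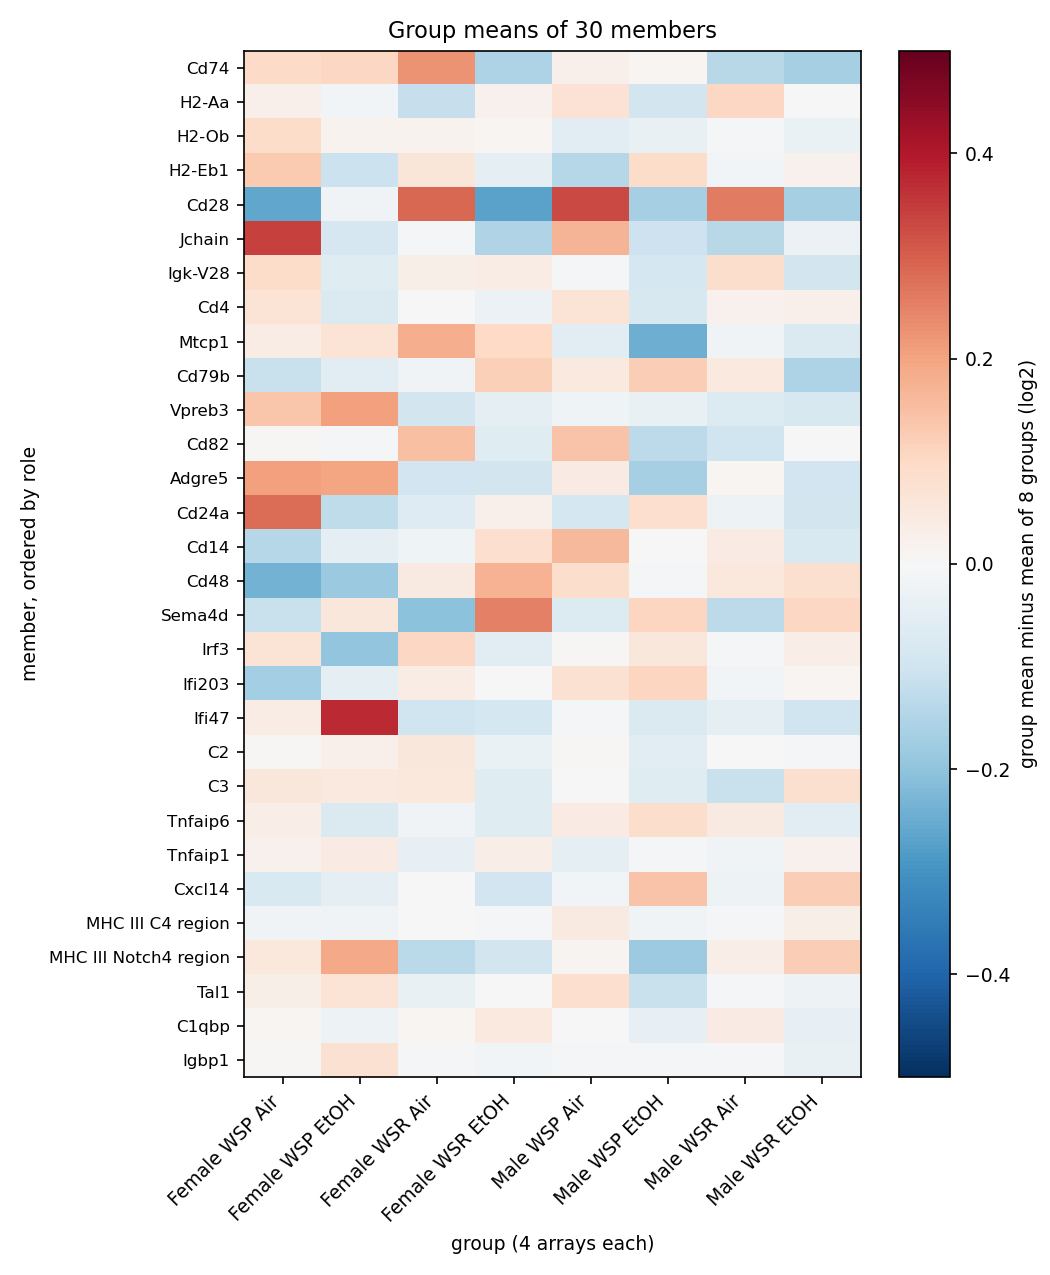
Mean log2 intensity of 30 of the 31 members in each of the 8 groups (4 arrays each), minus that member's mean over the 8 groups, as colour (red above, blue below). Deviations run from -0.27 to 0.37, and the largest, Ifi47 in Female WSP EtOH, comes from 2 of its 4 arrays.

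The 4 class II members had a lower mean in EtOH than in air, with differences from -0.10 to -0.02 log2, and none passed. Cd74, the invariant chain that chaperones class II molecules, was the bright one and was above background on all 32 arrays. Cd74 in female WSP pools was at 10.70, 10.32, 10.40 and 11.07 in air and at 10.71, 10.46, 10.45 and 10.91 in EtOH. Cd74 in female WSR pools was at 10.79, 10.65, 10.67 and 10.90 in air and at 10.29, 10.22, 10.58 and 10.40 in EtOH. In female WSP the groups overlapped, and in female WSR all 4 EtOH arrays lay below all 4 air arrays. Cd74 in male WSP pools was at 10.66, 10.60, 10.40 and 10.57 in air and at 10.31, 10.85, 10.33 and 10.66 in EtOH. Cd74 in male WSR pools was at 10.03, 10.62, 10.43 and 10.48 in air and at 10.36, 10.33, 10.37 and 10.37 in EtOH. In males the groups overlapped in both lines, and the lowest of all 32 arrays was male WSR air 1-1. The EtOH difference of Cd74 was -0.38 in female WSR (SE 0.14, 95% interval -0.67 to -0.09, n = 4 each, limma unadjusted p = 0.0126, adjusted p = 1.00), so it did not pass. It was 0.01 in female WSP, -0.02 in male WSP and -0.03 in male WSR. In female WSR it stayed between -0.45 and -0.33 when each array was left out in turn, was -0.46 and -0.30 within selection replicates 1 and 2, was -0.22 under median scaling, and was -0.38 with the deviation of neighbouring spots subtracted. Averaged over strata, Cd74 was at 10.48 ± 0.21 in EtOH and 10.58 ± 0.24 in air (SD, n = 16 each). Of its variance around the group means, 20.4% lay between array sets, the smallest share but that of Adgre5 among the members. Such a share is not by itself an effect of the sets.

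**Figure D3:**
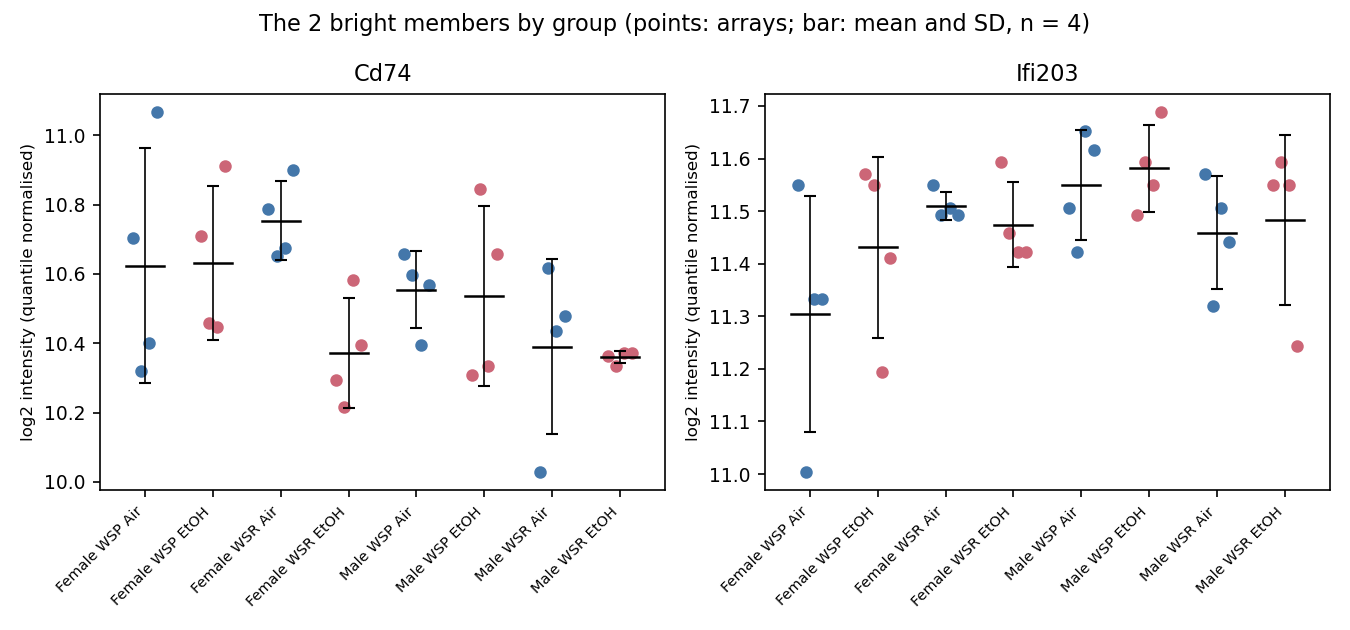
Log2 intensity of Cd74 and Ifi203 on each array (points, blue for air and red for EtOH) by group, with the mean and SD of the 4 arrays (black). The female WSR EtOH arrays of Cd74, from 10.22 to 10.58, lie below the female WSR air arrays, from 10.65 to 10.90, while the groups of Ifi203 overlap in every stratum.

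H2-Aa, the alpha chain of the A class II molecule, ran from 5.75 to 6.24 with a median of 6.07 in EtOH and from 5.80 to 6.43 with a median of 6.02 in air (n = 16 each). H2-Eb1, the beta chain of the E molecule, ran from 5.87 to 6.44 (median 5.98) in EtOH and from 5.82 to 6.43 (median 6.04) in air. H2-Ob, a chain of the DO molecule that restrains peptide loading in B cells, ran from 5.66 to 5.94 (median 5.81) and from 5.68 to 6.14 (median 5.81). The EtOH and air values of all 3 overlapped almost entirely. Their average EtOH differences were -0.04, -0.02 and -0.02 log2. H2-Eb1 differed most between the sexes in its EtOH effect, at -0.24 in female WSP and -0.11 in female WSR against 0.23 and 0.03 in the males (interaction -0.30, SE 0.13, limma unadjusted p = 0.0277, adjusted p = 0.761), which did not pass. It is named after its values were seen, as are all members below that are not given array by array.

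Among the 7 lymphocyte members, 5 had lower and 2 higher means in EtOH, with 2 at an unadjusted p under 0.05 and none after adjustment. Jchain, which joins antibody subunits into polymers in plasma cells, was above background on every array. Jchain in female WSP pools was at 7.21, 6.40, 6.12 and 6.88 in air and at 6.14, 6.27, 6.27 and 6.24 in EtOH. Jchain in female WSR pools was at 6.36, 6.13, 6.32 and 6.41 in air and at 6.05, 6.52, 5.98 and 6.09 in EtOH. In female WSP 3 of 4 air arrays lay above all EtOH arrays and the other below them, and in female WSR 3 of 4 EtOH arrays lay below all air arrays. Jchain in male WSP pools was at 6.36, 6.47, 6.64 and 6.47 in air and at 6.68, 6.02, 5.98 and 6.15 in EtOH. Jchain in male WSR pools was at 6.06, 6.33, 6.27 and 6.04 in air and at 6.19, 6.22, 6.39 and 6.34 in EtOH. In male WSP the EtOH arrays split, with 3 below and 1 above every air array, while in male WSR the groups overlapped. The average EtOH difference was -0.18 (SE 0.08, 95% interval -0.35 to -0.01, limma unadjusted p = 0.0347, adjusted p = 0.656), and 14 of 16 EtOH arrays lay below the air mean. It was -0.42 in female WSP (SE 0.17, adjusted p = 0.338) and -0.28 in male WSP, against -0.15 and 0.11 in female and male WSR. The female WSP value was -0.24 without air 1-1 and -0.60 without air 2-1, and -0.99 in the authors' deposited values. The test of that line difference gave -0.33 (SE 0.17, limma unadjusted p = 0.0555, adjusted p = 0.999), which did not pass. By population it was -0.33 in WSP-1 and -0.37 in WSP-2, and 0.03 and -0.06 in WSR-1 and WSR-2. The 8 spots next to Jchain had a median deviation of 0.23 and 1.26 on its brightest arrays, female WSP air 1-1 and 2-2, and of -0.11 on the next, male WSP EtOH 1-1. With that deviation subtracted from each spot, the difference was -0.09 in female WSP and -0.04 on average.

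Cd4, the co-receptor of helper T cells, was dim, with 23 of 32 arrays above background. Cd4 in female WSP pools was at 5.95, 5.90, 6.03 and 6.08 in air and at 5.74, 5.87, 5.85 and 5.91 in EtOH. Cd4 in female WSR pools was at 5.96, 5.86, 5.83 and 6.02 in air and at 5.85, 5.92, 5.88 and 5.90 in EtOH. The female WSP groups overlapped by a single EtOH array, and the female WSR groups overlapped fully. Cd4 in male WSP pools was at 5.96, 6.08, 5.91 and 5.995 in air and at 5.87, 5.74, 5.79 and 5.94 in EtOH. Cd4 in male WSR pools was at 5.89, 6.04, 5.94 and 5.87 in air and at 5.88, 5.90, 5.92 and 6.06 in EtOH. The male WSP groups again overlapped by a single EtOH array, and male WSR EtOH 2-2 was among the highest of all. Cd4 was 0.08 log2 units lower in EtOH on average (difference -0.08, SE 0.03, limma unadjusted p = 0.0253, adjusted p = 0.656), and 15 of 16 EtOH arrays lay below the air mean. It was -0.14 in female and -0.15 in male WSP (SE 0.07 each, adjusted p = 0.417 and 0.751), and -0.03 and 0.00 in female and male WSR, and the test of that line difference gave -0.13, which did not pass (limma adjusted p = 0.999). Treatment took up 22.8% of the variance of Cd4 around the stratum means, the largest share among the members, against a median of 2.30% over members and 2.33% over all clone spots. With neighbouring spots subtracted, the average difference was -0.04.

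**Figure D4:**
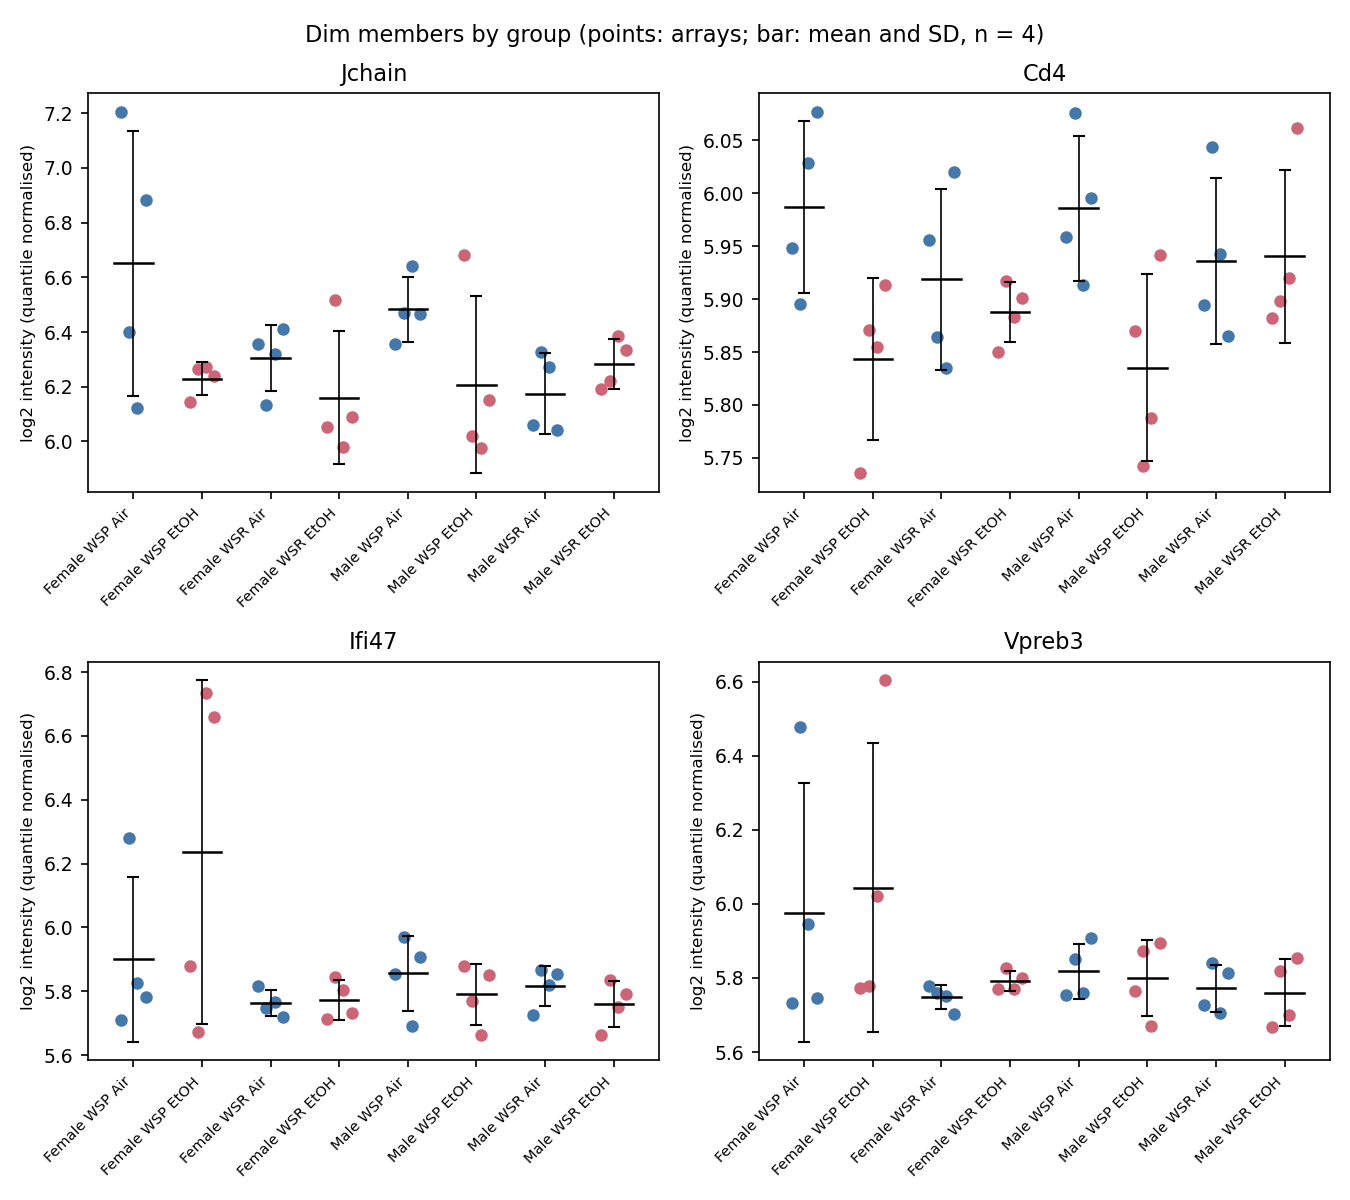
Log2 intensity of Jchain, Cd4, Ifi47 and Vpreb3 on each array (points, blue for air and red for EtOH) by group, with the mean and SD of the 4 arrays (black). Axes differ between panels. Jchain and Cd4 means are lower in EtOH in female and male WSP, and the high values of Ifi47 and Vpreb3 are on a few female WSP arrays of either treatment.

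Cd28, the T cell costimulator, had the most negative EtOH average, at -0.31 (SE 0.19, 95% interval -0.70 to 0.08, limma adjusted p = 0.740), which did not pass. In air it ran from 5.75 to 7.78 with a median of 5.84, and in EtOH from 5.72 to 6.23 with a median of 5.82. The difference rests on 3 air arrays of selection replicate 1 and pool 2, at 7.78 in female WSR, 7.78 in male WSP and 7.73 in male WSR, and no other array of either treatment was above 6.23. These 3 arrays belong to the same array set (set 9), whose other array, female WSR EtOH 1-2, was at 5.75. The 8 spots next to Cd28 were high on the same 3 arrays, with a median deviation of 1.14 to 1.23 log2. Without the 4 arrays of the set the average difference of Cd28 was 0.05, and within selection replicate 2 alone it was 0.04, so its direction turned. Cd28 was above background on none of the female WSR EtOH arrays and is given there as a bound. For such a bound, the dim group's value on each array is the lowest signal found above background there, or the spot itself where that is higher. Its mean there was at least 1.35-fold lower in EtOH (means 6.32 in air and 5.76 in EtOH, limma adjusted p = 1.00). Only 1 of the 4 air arrays was above background, at 7.78. The bound is between means, and the 95% interval of the log2 difference, from -1.34 to 0.23, crosses 0. In female WSP the direction was the opposite, with Cd28 above background on 0 of 4 air and 2 of 4 EtOH arrays. It was at least 1.07-fold higher in EtOH there (means 5.77 in air and 6.01 in EtOH, limma adjusted p = 0.874). The 95% interval of that log2 difference, from -0.54 to 1.03, also crosses 0.

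Cd79b, the beta chain of the B cell receptor's signalling unit, was named by its difference in male WSR. Cd79b in female WSP pools was at 5.90, 5.97, 5.81 and 5.83 in air and at 6.10, 6.0002, 5.77 and 5.85 in EtOH. Cd79b in female WSR pools was at 6.29, 6.002, 5.84 and 5.75 in air and at 6.002, 6.46, 5.94 and 6.03 in EtOH. The female groups overlapped, with female WSR EtOH 1-2 the highest of all arrays. Cd79b in male WSP pools was at 6.18, 5.98, 5.84 and 6.16 in air and at 6.11, 6.29, 6.12 and 5.93 in EtOH. Cd79b in male WSR pools was at 6.23, 5.88, 6.05 and 5.99 in air and at 5.75, 6.002, 5.83 and 5.75 in EtOH. In male WSR 3 of 4 EtOH arrays lay below all air arrays. The difference there was -0.20 (SE 0.12, limma unadjusted p = 0.103, adjusted p = 1.00), and it was 0.06, 0.14 and 0.07 in the other 3 strata.

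Vpreb3, a partner of the surrogate light chain in B cell precursors, was above background on 9 of 32 arrays. Vpreb3 in female WSP pools was at 5.73, 6.48, 5.95 and 5.75 in air and at 5.77, 5.78, 6.02 and 6.60 in EtOH. Vpreb3 in female WSR pools was at 5.78, 5.76, 5.75 and 5.70 in air and at 5.77, 5.83, 5.77 and 5.80 in EtOH. Only female WSP air 1-2 and EtOH 2-2 stood well above the rest. Vpreb3 in male WSP pools was at 5.76, 5.85, 5.76 and 5.91 in air and at 5.76, 5.87, 5.67 and 5.89 in EtOH. Vpreb3 in male WSR pools was at 5.73, 5.84, 5.71 and 5.81 in air and at 5.67, 5.82, 5.70 and 5.85 in EtOH. All male groups overlapped. Its EtOH average was 0.02. Mtcp1, a gene first found at a translocation in mature T cell leukaemia, was above background on 31 arrays. Mtcp1 in female WSP pools was at 6.21, 6.79, 6.33 and 6.23 in air and at 6.49, 6.47, 6.48 and 6.25 in EtOH. Mtcp1 in female WSR pools was at 6.44, 6.50, 6.43 and 6.76 in air and at 6.41, 6.60, 6.25 and 6.54 in EtOH. Female air and EtOH arrays overlapped in both lines. Mtcp1 in male WSP pools was at 5.96, 6.44, 6.48 and 6.31 in air and at 6.12, 6.11, 6.005 and 6.18 in EtOH. Mtcp1 in male WSR pools was at 6.22, 6.54, 6.26 and 6.31 in air and at 5.77, 6.40, 6.50 and 6.45 in EtOH. Male arrays reached lower, with male WSR EtOH 1-1 the lowest of all. Igk-V28 had an EtOH average of -0.10 (SE 0.06), with 14 of 16 EtOH arrays below the air mean, and did not pass (limma adjusted p = 0.743).

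Of the 6 leukocyte surface antigens, 4 had lower and 2 higher means in EtOH, and Sema4d had the smallest unadjusted p of all members in the EtOH average. Sema4d, a semaphorin of lymphocytes that is also made by oligodendrocytes, was above background on 26 arrays. Sema4d in female WSP pools was at 5.99, 5.91, 5.91 and 5.93 in air and at 6.26, 6.10, 6.10 and 5.95 in EtOH. Sema4d in female WSR pools was at 5.76, 5.75, 5.93 and 5.92 in air and at 7.19, 6.12, 5.96 and 5.92 in EtOH. In the females EtOH 1-1 of WSR stood far above all others, and the rest of the EtOH values lay within or above the range of the air values. Sema4d in male WSP pools was at 6.20, 5.78, 5.92 and 6.01 in air and at 6.74, 5.83, 5.93 and 6.10 in EtOH. Sema4d in male WSR pools was at 5.92, 5.87, 5.95 and 5.92 in air and at 5.91, 6.71, 6.002 and 5.97 in EtOH. In the males WSP EtOH 1-1 and WSR EtOH 1-2 stood apart, and the other values overlapped. Sema4d was 0.26 log2 units higher in EtOH on average (SE 0.10, 95% interval 0.05 to 0.46, limma unadjusted p = 0.0158, adjusted p = 0.656), and 14 of 16 EtOH arrays lay above the air mean. The difference was 0.46 within selection replicate 1 and 0.06 within selection replicate 2. Of the 3 high arrays, female WSR EtOH 1-1 and male WSR EtOH 1-2 are the 2 arrays of set 10, and without that set the average was 0.14. The median deviation of the 5 spots next to Sema4d was 0.40 and 0.56 on these 2 arrays and -0.03 on male WSP EtOH 1-1. With it subtracted from each spot, the average was 0.12.

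Cd48, an adhesion partner on leukocytes, was among the 5 highest members by mean. Cd48 in female WSP pools was at 6.12, 6.36, 6.05 and 6.70 in air and at 6.56, 6.37, 6.36 and 6.14 in EtOH. Cd48 in female WSR pools was at 6.25, 7.11, 6.55 and 6.45 in air and at 7.10, 6.27, 6.89 and 6.61 in EtOH. Female WSP arrays lay at or below 6.70, and 2 female WSR arrays, 1 of each treatment, reached above 7. Cd48 in male WSP pools was at 7.03, 6.66, 6.59 and 6.25 in air and at 7.13, 6.23, 6.35 and 6.43 in EtOH. Cd48 in male WSR pools was at 6.54, 6.96, 6.57 and 6.32 in air and at 5.97, 7.05, 6.92 and 6.55 in EtOH. In the males the high values again came from both treatments. The EtOH average was 0.03 (SE 0.11). Cd48 was also high on the 3 arrays that were high in Sema4d, at 7.10 in female WSR EtOH 1-1, 7.05 in male WSR EtOH 1-2 and 7.13 in male WSP EtOH 1-1. Cd48 and Sema4d lie in the same grid, and the 8 spots next to Cd48 had median deviations of 0.50, 0.39 and 0.26 on these arrays. On female WSR air 1-2 and male WSP air 1-1, where Cd48 was also above 7, they were 0.12 and 0.02. Cd14, the co-receptor for bacterial endotoxin on microglia and monocytes, was named by the sex difference of its EtOH effect. Cd14 in female WSP pools was at 5.76, 5.76, 5.82 and 5.71 in air and at 5.92, 5.88, 5.85 and 5.77 in EtOH. Cd14 in female WSR pools was at 5.995, 5.92, 5.88 and 5.74 in air and at 6.16, 5.93, 5.89 and 5.98 in EtOH. In female WSP 3 of 4 EtOH arrays lay above all air arrays, and in female WSR the groups overlapped. Cd14 in male WSP pools was at 6.32, 6.07, 5.89 and 5.99 in air and at 6.11, 5.70, 5.85 and 5.98 in EtOH. Cd14 in male WSR pools was at 6.13, 5.96, 5.88 and 5.81 in air and at 5.76, 5.92, 5.83 and 5.81 in EtOH. In the males the EtOH means were lower and the groups overlapped. The EtOH difference was 0.09 in female WSP and 0.11 in female WSR against -0.16 and -0.12 in the males (interaction 0.24, SE 0.09, limma unadjusted p = 0.0135, adjusted p = 0.7498), which did not pass. The interaction was 0.36 and 0.11 within selection replicates 1 and 2, and 0.02 with neighbouring spots subtracted. In female WSP Cd14 was above background on 0 of 4 air and only 1 of 4 EtOH arrays.

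Cd24a, a mucin-like protein of immature neurons and lymphocytes, was -0.41 in female WSP (SE 0.17, limma unadjusted p = 0.0242, adjusted p = 0.369), from 5.86, 6.50, 6.96 and 5.83 in air to 6.03, 5.88, 5.78 and 5.84 in EtOH. Of its air arrays, 2 were high and the other 2 overlapped the EtOH arrays. Irf3, whose spot lies in the same row of the same grid, was also highest of its female WSP arrays on these 2, air 1-2 and 2-1, at 6.18 and 6.45. The spots next to Irf3 had median deviations of 0.37 and 0.56 there. Those next to Cd24a are not given here, and the part of local signal in its difference was not tested. Cd82, a tetraspanin, was -0.27 in male WSP (SE 0.13, limma adjusted p = 0.751), from 5.94, 6.22, 6.37 and 6.03 to 5.92, 5.80, 5.85 and 5.90, where the groups did not overlap. Adgre5, titled CD97 and an adhesion receptor of leukocytes, had an EtOH average of -0.08 (SE 0.07).

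Of the interferon members, 2 had higher and 1 lower means in EtOH. Ifi203, an interferon-inducible protein of the nucleus, was the brightest member. Ifi203 in female WSP pools was at 11.55, 11.004, 11.33 and 11.33 in air and at 11.57, 11.55, 11.19 and 11.41 in EtOH. Ifi203 in female WSR pools was at 11.55, 11.49, 11.51 and 11.49 in air and at 11.59, 11.46, 11.42 and 11.42 in EtOH. Female groups overlapped, and female WSP air 1-2 was the lowest of all arrays. Ifi203 in male WSP pools was at 11.51, 11.42, 11.65 and 11.62 in air and at 11.49, 11.59, 11.55 and 11.69 in EtOH. Ifi203 in male WSR pools was at 11.57, 11.32, 11.51 and 11.44 in air and at 11.55, 11.59, 11.55 and 11.24 in EtOH. Male groups overlapped too, with WSR EtOH 2-2 below the other male arrays. The EtOH average was 0.04 (SE 0.05, 95% interval -0.06 to 0.14, limma adjusted p = 0.858). The mean of Ifi203 lay at percentile 99.7 of the clone spots. Quantile normalisation sets values by rank, and several arrays share exactly 11.5489, so its spread and interval depend on that step. Ifi203 belongs to a cluster of similar genes, and a cDNA spot may also take up their transcripts, which was not tested.

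Ifi47, a GTPase induced by interferon gamma, was above background on 12 arrays. Ifi47 in female WSP pools was at 5.71, 6.28, 5.83 and 5.78 in air and at 5.88, 5.67, 6.73 and 6.66 in EtOH. Ifi47 in female WSR pools was at 5.82, 5.75, 5.77 and 5.72 in air and at 5.71, 5.84, 5.80 and 5.73 in EtOH. In female WSP both arrays of EtOH selection replicate 2 stood high, EtOH 1-2 was the lowest, and air 1-2 lay between. Ifi47 in male WSP pools was at 5.85, 5.97, 5.69 and 5.91 in air and at 5.88, 5.77, 5.66 and 5.85 in EtOH. Ifi47 in male WSR pools was at 5.73, 5.87, 5.82 and 5.85 in air and at 5.66, 5.84, 5.75 and 5.79 in EtOH. All other strata lay at or below 5.97 and overlapped. In female WSP the difference was 0.34 (SE 0.15, limma unadjusted p = 0.0288, adjusted p = 0.378), and within selection replicate 2 alone it was 0.89 (SE 0.10, adjusted p = 0.00346), which passed with 0.681% of all clone spots called. That value rests on 2 air arrays at 5.83 and 5.78 and 2 EtOH arrays at 6.73 and 6.66. The male arrays of the same population, with the same ethanol dose, were at 5.69 and 5.91 in air and at 5.66 and 5.85 in EtOH. On these EtOH arrays the 6 neighbouring spots had median deviations of 0.55 and 0.16, and 0.76 on air 1-2 of the other population. Ifi47 and Vpreb3 lie on adjacent spots, and both were high on female WSP air 1-2 and EtOH 2-2.

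Irf3, the factor that switches on interferon beta after viral sensing, had an EtOH average of -0.08 (SE 0.09, limma adjusted p = 0.840). In air it ran from 5.73 to 6.49 with a median of 6.10 and in EtOH from 5.74 to 6.39 with a median of 5.88. In 4 of the array sets its values lay close together: they were 5.73 to 5.77 in set 11, 6.21 to 6.49 in set 12, 5.76 to 5.79 in set 13 and 6.25 to 6.39 in set 14, each with air and EtOH arrays of selection replicate 2. In set 9 the 3 air arrays were at 6.30, 6.31 and 6.27 and the EtOH array at 5.74, and without that set the average difference was -0.01. In female WSP it was above background on 3 of 4 air and 0 of 4 EtOH arrays. Its mean there was at least 1.16-fold lower in EtOH (means 6.10 and 5.84, limma adjusted p = 0.614). The bound is between means, and the groups overlapped, with air from 5.77 to 6.45 and EtOH from 5.81 to 5.86. On the highest air arrays, 1-2 and 2-1, Irf3 deviated by 0.20 and 0.48 and its neighbouring spots by a median of 0.37 and 0.56. With neighbouring spots subtracted, the average difference over the strata was -0.008. That value for female WSP alone is not given here.

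**Figure D5:**
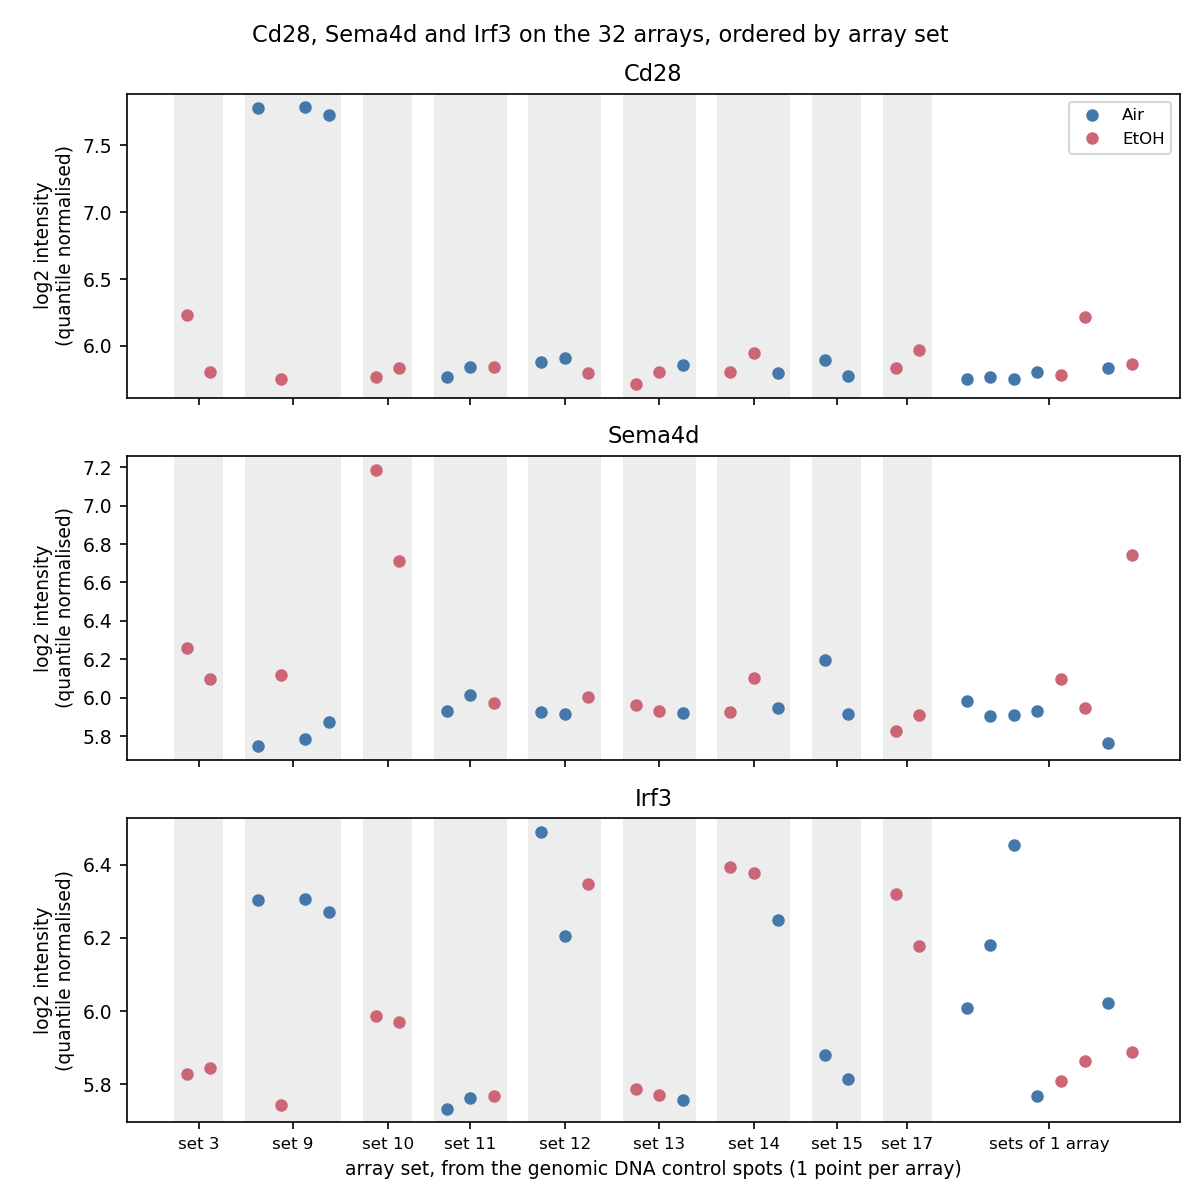
Log2 intensity of Cd28, Sema4d and Irf3 on the 32 arrays (blue for air, red for EtOH), ordered by the array sets found from the genomic DNA control spots (grey bands), with sets of a single array on the right. The high values of Cd28 lie in set 9, 2 of the 3 high values of Sema4d make up set 10, and Irf3 is low in sets 11 and 13 and high in sets 12 and 14, each of which holds both treatments.

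Over the 24 arrays in such sets, 17.6% to 85.6% of each member's variance around the group means lay between sets. The median was 59.98%, against 57.3% over all clone spots. With 9 sets over so few arrays, a sizeable share lies between sets even where they play no part. That baseline was not worked out, so the shares are read only against all clone spots. Tnfaip6 had the highest share and Adgre5 the lowest. The members follow these sets about as far as the rest of the array does, and the part of the sets in each member's difference was not tested beyond leaving them out.

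Of the complement members, C3, the hub of all complement pathways, had an EtOH average of 0.00 (SE 0.07), and C2, a part of the classical convertase, -0.03 (SE 0.03). Of the chemokine and tumor necrosis factor genes, Cxcl14, a chemokine made in the brain by neurons, was at 0.06 (SE 0.07), Tnfaip1 at 0.04 (SE 0.03), and Tnfaip6, a hyaluronan-binding protein made in inflammation, at -0.05 (SE 0.06). None of these 5 passed. Cxcl14 was highest on male WSP EtOH 1-2 and male WSR EtOH 1-1, at 6.62 and 6.57, which are the 2 arrays of set 17. Its median was 5.81 in EtOH and 5.86 in air, where it reached at most 6.15. A value of Cxcl14 without set 17 is not given here. Over the 32 arrays C3 ran from 5.76 to 6.41, C2 from 5.67 to 5.99, Cxcl14 from 5.73 to 6.62, Tnfaip1 from 5.74 to 5.97 and Tnfaip6 from 5.77 to 6.25. C2 was above background on 5 arrays and Tnfaip6 on 23, the fewest and the most of these 5. Tal1, Igbp1 and C1qbp, which match by title only, lay between -0.03 and 0.01. The 2 class III titles cover several genes each, so their spots stand for no single gene. The spot titled with Notch4 was among the 5 highest members. The Notch4 spot in female WSP pools was at 6.40, 6.49, 6.39 and 6.43 in air and at 6.48, 6.70, 6.77 and 6.30 in EtOH. The Notch4 spot in female WSR pools was at 6.04, 6.03, 6.50 and 6.38 in air and at 6.21, 6.18, 6.33 and 6.42 in EtOH. Female groups overlapped in both lines. The Notch4 spot in male WSP pools was at 6.35, 6.32, 6.35 and 6.54 in air and at 5.83, 6.003, 6.46 and 6.47 in EtOH. The Notch4 spot in male WSR pools was at 6.45, 6.43, 6.47 and 6.28 in air and at 6.35, 6.50, 6.56 and 6.58 in EtOH. In male WSP EtOH 1-1 and 1-2 were the lowest of all arrays, and the groups overlapped. Its EtOH average was 0.02 (SE 0.06), and that of the spot titled with complement C4 was -0.01 (SE 0.03).

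Within the strata no member passed, and neither did any other clone spot (percent called 0 in each). Unadjusted p was under 0.05 for 4 members in female WSP (11.6% of all clone spots), 2 in female WSR (3.0%), 2 in male WSP (6.15%) and 0 in male WSR (3.39%). The smallest adjusted p of a member was 0.338, 1.00, 0.751 and 1.00 in that order. Air and EtOH arrays did not overlap for 3 members in female WSR, against 2.49% of all clone spots: C2 at -0.09, Tnfaip1 at 0.07 and Cd74 at -0.38. Of these, C2 was above background on 1 of 4 air and 0 of 4 EtOH arrays and Tnfaip1 on 0 of 4 air arrays, so only Cd74 was measured on both sides. They did not overlap for 1 member, Cd82, in male WSP (2.77% of all clone spots), and for 0 members in female WSP (5.47%) and male WSR (3.56%). Means were lower in EtOH for 14 of 31 members in female WSP (44.8% of all clone spots), 16 in female WSR (50%), 20 in male WSP (49.1%) and 18 in male WSR (47.2%). The median over members was 0.02, -0.0047, -0.06 and -0.02 in that order, and 0.02, 0.00, 0.00 and 0.01 over all clone spots. Among the tests of whether the EtOH effect differed, 0 members passed by line (0% of all clone spots) and 0 by sex (0%). At an unadjusted p under 0.05 there were 0 by line, against 2.09% of all clone spots, and 2 by sex, Cd14 and H2-Eb1, against 6.13%. The difference of the effects was below 0 for 19 of 31 members by line (48.5% of all clone spots) and for 12 by sex (50.8%).

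Between the lines, none of the 31 members passed, while 0.639% of all clone spots did (limma, adjusted p under 0.05). At an unadjusted p under 0.05 there were 2 members, Ifi47 and Vpreb3, against 7.18% of all clone spots, and 14 of 31 had a lower mean in WSP (47.4% of all). Ifi47 ran from 5.66 to 6.73 with a median of 5.85 in WSP and from 5.66 to 5.87 with a median of 5.78 in WSR (n = 16 each). Its line difference, WSP minus WSR, was 0.17 (SE 0.07, limma adjusted p = 0.595), and 0.12 with neighbouring spots subtracted. Vpreb3 differed by 0.14 (SE 0.06, adjusted p = 0.642) and Jchain by 0.16 (SE 0.08, adjusted p = 0.740), all with overlapping groups, and with neighbouring spots subtracted they differed by 0.09 and 0.02. Without array set 3, which holds female WSP EtOH 1-1 and 1-2, Ifi47 passed for line at 0.28 (adjusted p = 0.00238, with 0.745% of all clone spots called). It then also passed for sex at 0.23 (adjusted p = 0.00825, 1.11% called) and for EtOH in female WSP at 0.80 (adjusted p = 0.000145, 0.0639% called). Female WSP EtOH was then left with only 2-1 and 2-2, at 6.73 and 6.66, while female WSP air kept both selection replicates. Treatment, population and the higher dose cannot be told apart in that contrast. The line and sex differences use the same group mean. In the authors' deposited log2 values, which cover 12 members, Ifi203 and Cd74 passed for line, at 0.38 and 0.30 (adjusted p = 0.0279 and 0.0496), with 9.72% of 2170 spots called.

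Between the sexes, none of the 31 members passed, while 0.894% of all clone spots did. At an unadjusted p under 0.05 there were 2 members, Mtcp1 and H2-Ob, against 8.77% of all clone spots, and 13 of 31 had a lower mean in females (48.4% of all). Mtcp1 ran from 6.21 to 6.79 with a median of 6.45 in females and from 5.77 to 6.54 with a median of 6.29 in males (n = 16 each), and the sexes overlapped widely. Its difference, female minus male, was 0.19 (SE 0.07, 95% interval 0.05 to 0.34, limma unadjusted p = 0.0123, adjusted p = 0.325), 0.29 within selection replicate 1 and 0.10 within selection replicate 2. Cd74 differed by 0.13 (SE 0.07, adjusted p = 0.624) and Ifi203 by -0.09 (SE 0.05, adjusted p = 0.634). The direction of each turned under 1 alternative: Cd74 was at -0.13 in the authors' deposited values, though at 0.41 under median scaling, and Ifi203 was at 0.22 under median scaling. With neighbouring spots subtracted, Mtcp1 was at 0.09, Cd74 at 0.03 and Ifi203 at -0.20. The median over members was 0.02 against 0.00 over all clone spots. In the authors' deposited values Mtcp1 and Ifi203 passed for sex, at 0.61 and -0.56 (adjusted p = 0.00277 and 0.000918), with 14.8% of 2170 spots called and a median over those spots of 0.12. Relative to that median they were at 0.49 and -0.68. Background intensity also differed between the sexes, as given above, and its part in these values was not tested.

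Genes of the same pathways that are no members were taken from 3 lists of titles. Of 8 immune receptors, 1 had a higher and 7 a lower mean in EtOH, with a median of -0.04. Of 8 genes of cytokine signalling, such as Nfkb1, 2 were higher and 6 lower, with a median of -0.03. Of 8 genes of antigen processing and innate effectors, 5 were higher and 3 lower, with a median of 0.01. None of the 24 passed. Of cell markers, the 3 microglia and macrophage spots, Cd14 among them, all had differences below 0, from -0.14 to -0.01. In female WSR all 3 had differences above 0, with a median of 0.09. Their summed log2 level ran from 17.5 to 20.5 over female WSP air arrays and from 17.3 to 18.6 over all other groups. The Fc receptor spot among them reached 8.31, against its mean of 5.92, and was above background on 13 of 32 arrays. Macrophage expressed gene 1 and Cd14 reached no higher than 6.59 and 6.32 on any array. Cd14 was above background on no female WSP air array. The 16 spots matched for blood and choroid plexus, some of which mark neither, were 4 higher and 12 lower. A haemoglobin alpha spot and transthyretin, made by choroid plexus, were above background on all 32 arrays at means of 10.61 and 9.86. Another spot with the same haemoglobin alpha title was at 5.88 and above background on 13 arrays, and the haemoglobin beta spots were at 5.95 and 5.94. In female WSR 11 of the 16 were higher and 5 lower. The summed log2 level of these 16 ran from 104.6 to 109.4 over the 32 arrays. Neuron markers were 3 higher and 1 lower, astrocyte markers 2 and 1, oligodendrocyte markers 1 and 2, and vascular markers 1 and 1. None of these marker spots passed, and their part in the members' values was not tested.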

How the data were processed

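Each of 32 arrays was hybridised with cDNA labelled from RNA of 2 pooled mice (64 in all), and its precision is limited by that number. The authors deposited spot intensity values that are not background-subtracted, with 1 background intensity per array, per the file headers. The authors also deposited a table of log2 values, blank where the signal was below background. No source used here gives its scaling or centring, and its column medians run from 7.39 to 8.58. Software and scanner settings are likewise not given in the sources.

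Of 5355 spots, 4696 are clones, 192 genomic DNA controls and 467 without identity. Intensities were background-corrected with limma's normexp (offset 50) on all spots, clone spots were quantile-normalised on the log2 scale, and 8 group means were fitted with a trended empirical Bayes prior (24 residual and 5.60 prior degrees of freedom). P-values were adjusted by Benjamini-Hochberg over 4696 clone spots, with a threshold of 0.05. R 4.3.3, limma 3.58.1, Python 3.11.15, pandas 2.3.3 and matplotlib 3.10.9 were used, and the code was tested on simulated data. Pools within a population are separate mice, but p-values treat the populations as alike. Average differences weight the 4 strata equally, and the line and sex differences weight the 4 groups on each side equally.

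Members are given array by array if they were among the 5 with the highest mean, among the 3 with the smallest unadjusted p in the averages, or first in a stratum or interaction. For the last 2 rules the mean of the higher side had to lie above the 25th percentile of spot means, which was 5.87. The members and lists were chosen with earlier results of these data known. 1 member is counted but not reported by name here. Symbols were assigned to titles by hand and found in RefSeq for 28 members. Array sets came from average linkage on 1 minus Spearman's correlation of the genomic DNA spots (height 0.75), and neighbours are spots within 1 row and 1 column. Replicate numbers name populations and pools. Deviations from the group means were averaged over the pools of selection replicate 1. These averages of air and EtOH correlated at -0.08, 0.21, 0.00 and -0.02 in the female WSP, female WSR, male WSR and male WSP strata. Air and EtOH arrays were therefore not taken as pairs, and pools with the same number were not compared singly. Alternatives were median scaling, cyclic loess, no background correction, the authors' values, a filter on dim spots, a replicate block, an array set block, each selection replicate alone and each array left out. Leaving out array sets and subtracting neighbouring spots were added after seeing the data.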

Additional observations from a re-analysis of the deposited data

Results flagged for a closer look

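Within groups of 4 arrays, 120 sets of values were examined for a single array far from the other 3, by Dixon's criterion at the 95% level, which chance gives in about 1 in 20 groups, and 11 had one. Sema4d was high on female WSR EtOH 1-1 at 7.19 and on male WSR EtOH 1-2 at 6.71. Mtcp1 was low on female WSP EtOH 2-2 at 6.25 and on male WSR EtOH 1-1 at 5.77. Ifi203 was low on male WSR EtOH 2-2 at 11.24. Cd79b was high on female WSR EtOH 1-2 at 6.46, and the Notch4 spot of the class III region on male WSP air 2-2 at 6.54. Cd28 was high on the air arrays 1-2 of female WSR at 7.78, of male WSP at 7.78 and of male WSR at 7.73. The median over the 31 members was high on female WSP air 1-2 at 6.24. The Cd28 arrays belong to 1 array set and the Sema4d arrays to another, and neighbouring spots were high on the same arrays.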

How the results depend on the processing

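No member passed in any comparison when any of the 32 arrays was left out in turn, and the median difference over members then ran from -0.04 to -0.01 for EtOH, from 0.00 to 0.01 for line and from 0.00 to 0.03 for sex. Under the alternatives, 1 member (Ifi47) passed for EtOH in female WSP within selection replicate 2 alone. Without array set 3, 1 each passed for EtOH in female WSP, line and sex (Ifi47). That setting leaves female WSP EtOH with arrays of selection replicate 2 only. In the authors' values 2 passed for line (Ifi203 and Cd74) and 2 for sex (Mtcp1 and Ifi203). The authors' values, which leave out spots below background, also moved the median over members to -0.12 for EtOH, 0.15 for line and 0.29 for sex, over all-spot medians of 0.01, 0.01 and 0.12. The direction turned for Cd28 in the EtOH average (0.039 within selection replicate 2, 0.053 without array set 9), for Cd74 by sex (-0.13 in the authors' values) and for Ifi203 by sex (0.22 under median scaling). The cause was not tested. The remaining counts cover only the comparisons by which members were named, and the EtOH average of Cd28 and Irf3. There, 851 values under alternatives kept their direction and side of the threshold. A further 3 passed the threshold only under an alternative: Ifi47 for line, and Mtcp1 and Ifi203 for sex. The other passes listed above lie in comparisons outside these counts.

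Counts over all clone spots moved more. In female WSP 0 passed against 17 under median scaling, 31 under cyclic loess, 22 in the authors' values, and 17 and 32 within selection replicates 1 and 2. For line 30 passed against 0 under median scaling, 16 under cyclic loess and 211 in the authors' values. For sex 42 passed against 5, 40 and 322. Leaving out an array set gave 4 to 35 for line and 15 to 53 for sex. With a replicate block no member's call changed, 0 members passed, and 31 and 42 clone spots passed for line and sex. Most members lie near the background, so small differences in them could not be measured here.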
